A study of Mus musculus with 2 samples.

Results

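The nuclear genes that encode subunits of respiratory complexes II, III and IV and of ATP synthase (complex V), together with somatic cytochrome c, were examined in the embryonic mouse heart. The 46 genes were taken by name from a list of subunits, not by their level, and each matched 1 of the 69691 rows of the gene tables: 4 of complex II, 9 of complex III, 17 of complex IV, 15 of complex V and Cycs. The measurements came from 2 total RNA-seq libraries of hearts of B6NCrl mouse embryos at embryonic day 12.5, labelled as biological replicates 1 and 2 of 1 group, with no treatment or genetic change given in the labels. The input per library was 10 ng of RNA above 200 nt, spiked with ERCC standards, and each heart sample pooled male and female embryos, so differences between single embryos cannot be seen. A single group allows no contrast between conditions, so no p-value is given; errors are SDs over both libraries (n = 2).

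Complex II oxidises succinate and passes its electrons to ubiquinone; complex III takes them on to cytochrome c, and complex IV passes them to oxygen. Complexes III and IV pump protons as they do so, and ATP synthase lets the protons back through its membrane part to drive ATP formation in its F1 head. Complex II is encoded wholly in the nucleus, whereas complexes III, IV and V also hold subunits made from mitochondrial DNA. Several complex IV subunits exist in mammals as a ubiquitous ("liver") form and a heart and skeletal muscle form, and the muscle forms are known to become the main ones in heart as it matures.

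The libraries held 34751234 estimated reads in replicate 1 and 31847875 in replicate 2. All 8 heart muscle markers were at 100 TPM (a share of all transcripts, scaled by transcript length) or more in both libraries, led by Actc1, cardiac actin, at 9805 ± 76.9 TPM. Red cell RNA was abundant too, with summed TPM of 6 markers of 46260 in replicate 1 and 41555 in replicate 2, led by the embryonic globin Hbb-y. The 5 hepatocyte markers summed to 135 TPM in replicate 1 and 29.2 TPM in replicate 2, and the 6 skeletal muscle markers to 66.4 and 65.5 TPM in replicates 1 and 2. Of these 6, Ckm, muscle creatine kinase, was the highest at 41.5 and 41.9 TPM, and the myogenic regulator Myod1 the lowest at 0.41 and 0.21 TPM. In such bulk samples, fewer cells of a type and less RNA per cell cannot be told apart. The part of red cell, hepatocyte or other cell RNA in the values below was not tested.

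All 46 genes were at 1 TPM or more in both libraries, where 57.5% of 21461 nuclear protein-coding genes were. At 100 TPM or more in both libraries stood 43 of the 46, where 6.31% of nuclear protein-coding genes did. The median member had 767 TPM, and the median of the 12344 protein-coding genes detected in both libraries was 18.9 TPM. Of the 86 protein-coding genes at 1000 TPM or more in both libraries 16 were members, and 18 members were among the 100 highest protein-coding genes by mean TPM. The 3 members below 100 TPM were all alternative forms of complex IV subunits: Cox8b, Cox6b2 and Cox4i2. Together the 46 genes took 3.94 ± 0.0301% of all TPM but 2.03 ± 0.0264% of all estimated reads, since their transcripts are short, with mean lengths between 362 bases (Cox8b) and 3052 bases (Cycs).

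**Figure D1:**
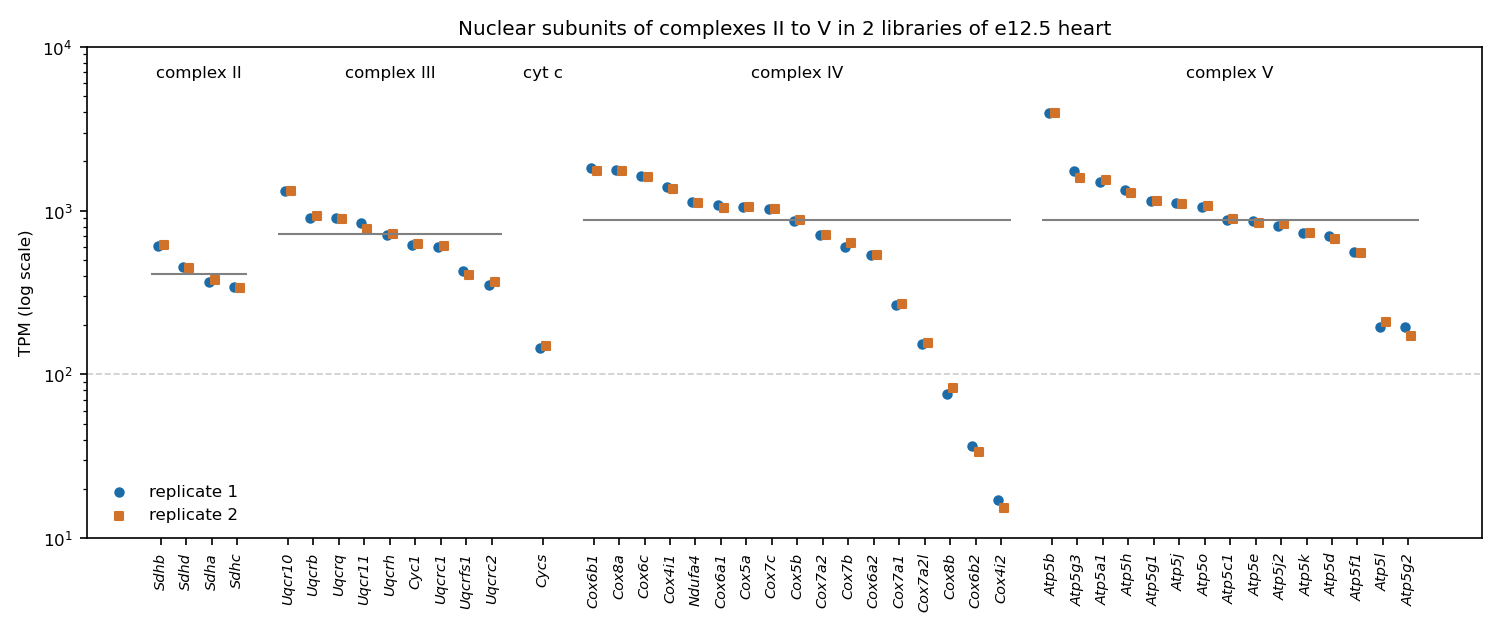
TPM (log scale) of each of the 46 genes, ordered by level within each complex; circles are replicate 1, squares replicate 2, grey lines the median of each complex and the dashed line 100 TPM. The symbols of the 2 libraries nearly coincide for most genes, and the 3 genes under the dashed line are Cox8b, Cox6b2 and Cox4i2.

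Complex II had the lowest level of the 4 complexes, with a median of 413 ± 2.34 TPM over its 4 genes, and the smallest spread between its subunits. Sdhb, the iron-sulfur subunit that hands electrons on from the flavin (mm10 chromosome 4, 140961203 to 140979193), had 610 TPM in replicate 1 and 615 TPM in replicate 2. Sdhd, the small membrane anchor, had 454 and 449 TPM in replicates 1 and 2. Sdha, the flavoprotein that oxidises succinate, had 367 and 379 TPM. Sdhc, the large membrane anchor, was the lowest at 344 and 339 TPM, so that Sdhb was 1.79 ± 0.0316-fold above it. The SD of log2 TPM over the 4 subunits was 0.37, and the order of the 4 genes was the same in both libraries.

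Complex III lay above complex II, with a median of 718 ± 6.44 TPM over 9 genes. The 2 nuclear subunits that carry redox centres were not the highest of the 9 genes. Cyc1, cytochrome c1, had 620 and 628 TPM in replicates 1 and 2, and Uqcrfs1, the Rieske iron-sulfur protein, 430 and 408 TPM. Cytochrome b is made from mitochondrial DNA, and its gene mt-Cytb was higher than all 9, at 3385 ± 56.1 TPM. The large core proteins had 605 ± 1.53 TPM for Uqcrc1 and 359 ± 12.7 TPM for Uqcrc2, the lowest of the complex. The small subunits were higher: Uqcr10 at 1321 ± 6.17, Uqcrb at 915 ± 14.9, Uqcrq at 892 ± 10.6, Uqcr11 at 806 ± 46 and Uqcrh, the hinge protein, at 718 ± 6.44 TPM. Uqcr10, with 1325 and 1316 TPM, was 3.69 ± 0.148-fold above Uqcrc2, with 350 and 368 TPM. Their transcripts differ in length, 436 bases for Uqcr10 and 1756 for Uqcrc2, and TPM of short transcripts depends on the length correction: with reads divided by the annotated length, the SD of log2 levels over the 9 genes was 0.48, against 0.58 with TPM as deposited.

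Of the 17 nuclear genes of complex IV, the ubiquitous forms were the highest. Cox6b1, subunit VIb on the intermembrane side of the complex (chromosome 7, 30616861 to 30626151), had 1826 and 1756 TPM in replicates 1 and 2. Cox8a had 1765 and 1752 TPM, Cox6c 1637 and 1607 TPM, and Cox4i1, the ubiquitous subunit IV, 1403 and 1364 TPM. Ndufa4, first assigned to complex I and now to complex IV, had 1123 and 1115 TPM. Cox6a1, Cox5a and Cox7c were close together at 1064 ± 27.5, 1055 ± 1.35 and 1023 ± 6.13 TPM, Cox5b had 875 ± 8.05 TPM, and Cox7a2 and Cox7b were the lowest of the 11 ubiquitous genes at 713 ± 0.778 and 620 ± 21.7 TPM. The 11 ubiquitous genes spanned 2.89 ± 0.181-fold (SD of log2 TPM 0.51), whereas all 17 genes of the complex spanned 111 ± 5.12-fold (SD 2.05). Counting coding transcripts alone, the 11 genes spanned 5.44 ± 0.15-fold, with Cox5b the lowest, and with the TPM of near-identical copies added, 3.69 ± 0.0572-fold, with Cox7c the highest. The median was 875 ± 8.05 TPM over the 17 genes and 1069 ± 19.3 TPM over the 11.

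All 3 muscle forms of complex IV subunits were below their ubiquitous counterparts, by very different amounts. Cox6a2, the heart and muscle form of subunit VIa (chromosome 7, 128205435 to 128206387), had 537 and 535 TPM in replicates 1 and 2, against 1083 and 1044 TPM for Cox6a1 (chromosome 5, 115345642 to 115348981). The ratio of Cox6a2 to Cox6a1 was 0.504 ± 0.012, so that the muscle form made up 33.5 ± 0.528% of subunit VIa transcripts. Cox7a1, the heart and muscle form of subunit VIIa (chromosome 7, 30184144 to 30186078), had 267 and 268 TPM, against 713 and 714 TPM for Cox7a2 (chromosome 9, 79755361 to 79759878), a ratio of 0.375 ± 0.000414. Cox8b, the heart and muscle form of subunit VIII (chromosome 7, 140898945 to 140900446), had 75.8 and 82.4 TPM, against 1765 and 1752 TPM for Cox8a (chromosome 19, 7215153 to 7217616), a ratio of 0.045 ± 0.00289, and made up 4.31 ± 0.265% of subunit VIII transcripts. In each pair both libraries of the muscle form were below both libraries of the ubiquitous form. The ratios depend on the length correction, since Cox7a1 is annotated with 364 bases and Cox7a2 with 754: in estimated reads without a length correction the ratio of Cox7a1 to Cox7a2 was 0.152 ± 0.000167, that of Cox6a2 to Cox6a1 0.596 ± 0.0141 and that of Cox8b to Cox8a 0.0265 ± 0.00171, with the muscle form lower in all 3.

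The forms of other tissues were rarer still. Cox4i2, a subunit IV form known from lung and induced by low oxygen, had 17.0 and 15.4 TPM, from 253 and 206 reads, and made up 1.16 ± 0.0616% of subunit IV transcripts beside Cox4i1. Cox6b2, a form of subunit VIb known from testis, had 36.3 and 33.4 TPM, or 1.91 ± 0.0596% of the transcripts of its subunit beside Cox6b1. Testis forms outside the 46 genes were at the limit of detection, with 3 and 3 reads for Cox7b2, 1 and 0 for Cox8c and 2 and 1 for Cyct, testis cytochrome c, in replicates 1 and 2. Cox7a2l, a subunit VIIa relative (SCAF1) described as joining complexes III and IV into supercomplexes, had 153 and 156 TPM, 0.217 ± 0.00262 of the level of Cox7a2. Whether its product does so in this mouse strain cannot be read from RNA levels. When the forms of each subunit were summed, the 11 subunits of complex IV lay within 2.97-fold, between 1838 ± 4.2 TPM for subunit VIII and 620 TPM for subunit VIIb.

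**Figure D2:**
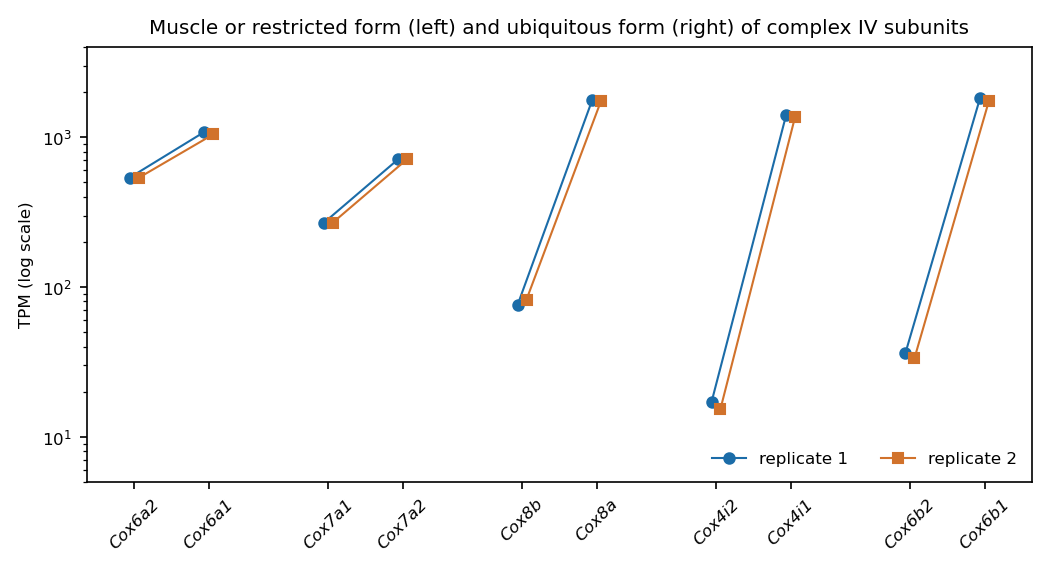
TPM (log scale) of the muscle or restricted form (left) and the ubiquitous form (right) of 5 complex IV subunits; lines join the forms within a library, blue circles for replicate 1 and orange squares for replicate 2. All lines slope upward to the ubiquitous form, least for Cox6a2 with Cox6a1 and most for Cox4i2 with Cox4i1.

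The regions before the start sites of the muscle and ubiquitous genes are shown because these genes are read side by side above. Sequences are RefSeq promoters on GRCm38.p6, the 250 bases before the annotated start, 5′ to 3′ on the strand of the gene; capitals mark matches of the motifs of the factors NRF1 (GCGCATGC), ETS or GABP (CCGGAAG), YY1 (AAGATGGC) and the E-box (CANNTG), searched on both strands. Cox6a1 is at chr5:115348959-115349208 and Cycs at chr6:50566570-50566819, both on the minus strand; Cox7a1 is at chr7:30183921-30184170 on the plus strand; Cox7a2 is at chr9:79759854-79760103, Cox8b at chr7:140900447-140900696 and Cox8a at chr19:7217617-7217866, all on the minus strand.
Cox7a1: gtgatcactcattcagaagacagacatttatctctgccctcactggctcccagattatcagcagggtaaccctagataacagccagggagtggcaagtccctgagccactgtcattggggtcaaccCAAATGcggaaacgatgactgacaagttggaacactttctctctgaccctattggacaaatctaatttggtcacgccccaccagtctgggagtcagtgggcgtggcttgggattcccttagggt
Cox7a2: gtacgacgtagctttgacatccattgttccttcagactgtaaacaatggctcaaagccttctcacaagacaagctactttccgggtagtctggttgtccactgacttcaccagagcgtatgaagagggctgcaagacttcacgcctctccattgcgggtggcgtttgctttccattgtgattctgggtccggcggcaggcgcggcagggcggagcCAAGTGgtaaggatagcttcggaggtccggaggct
Cox8b: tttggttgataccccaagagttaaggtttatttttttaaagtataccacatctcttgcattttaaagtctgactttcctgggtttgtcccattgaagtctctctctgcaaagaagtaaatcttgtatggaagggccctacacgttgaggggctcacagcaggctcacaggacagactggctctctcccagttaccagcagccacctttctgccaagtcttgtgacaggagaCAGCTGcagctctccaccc
Cox8a: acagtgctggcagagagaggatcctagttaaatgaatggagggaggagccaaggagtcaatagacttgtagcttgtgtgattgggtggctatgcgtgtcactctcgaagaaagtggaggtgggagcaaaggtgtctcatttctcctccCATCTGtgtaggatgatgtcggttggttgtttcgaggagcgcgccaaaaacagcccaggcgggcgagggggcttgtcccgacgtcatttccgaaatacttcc
Cox6a1: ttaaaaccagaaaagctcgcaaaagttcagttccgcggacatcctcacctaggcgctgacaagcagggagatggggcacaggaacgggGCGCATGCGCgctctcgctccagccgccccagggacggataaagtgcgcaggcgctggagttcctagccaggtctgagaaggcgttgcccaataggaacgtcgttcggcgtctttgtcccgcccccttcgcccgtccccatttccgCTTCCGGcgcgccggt
Cycs: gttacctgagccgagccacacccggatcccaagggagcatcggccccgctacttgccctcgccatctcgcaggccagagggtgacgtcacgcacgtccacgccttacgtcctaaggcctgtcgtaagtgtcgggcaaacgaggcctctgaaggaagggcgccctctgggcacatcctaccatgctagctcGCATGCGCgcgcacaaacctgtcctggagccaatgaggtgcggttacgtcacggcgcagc

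Before its start the muscle gene Cox8b held 1 CpG dinucleotide in 250 bases, against 11 before Cox8a, and Cox7a1 held 4, against 14 before Cox7a2. The median was 14 over the 35 members with a promoter in the table and 10 over 21263 promoters of protein-coding genes. Low counts were not limited to muscle genes, with 5 each before Uqcr10 and Cox7b, and the members ranged from 1 to 35. Each of the 4 genes held 1 E-box in the 250 bases shown, as CAGCTG 19 bases before the start of Cox8b. The capitals before Cox6a1 are 2 overlapping NRF1 matches, on opposite strands, and an ETS match 16 bases before the start; those before Cycs are an NRF1 match. An ETS match of Cox8a begins 5 bases before the start and runs across it, so it is not in capitals. The RefSeq starts of Cox6a1, Cox7a1 and Cox7a2 lie inside the genes as GENCODE M21 places them. The last bases of these windows, with the ETS match of Cox6a1, therefore fall within the M21 genes. Over whole windows, which also hold 50 bases after the start, NRF1 letters stood in 8 of the 35 members (22.9%) and in 3.94% of 17492 protein-coding genes. ETS letters stood in 12 of 35 (34.3%), against 12.95% of all, YY1 letters in 2 (5.71%), against 3.57%, and E-boxes in 24 (68.6%), against 72.1%. These are descriptions of letters in short windows, not sites of binding. The 11 members without an entry were Atp5a1, Atp5f1, Cox4i1, Cox4i2, Cox6a2, Cox6c, Cyc1, Sdhc, Uqcrb, Uqcrc2 and Uqcrq.

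ATP synthase had a median of 881 ± 4.09 TPM over 15 genes and the highest single member. Atp5b, the catalytic beta subunit of the F1 head (ENSMUSG00000025393.8; chromosome 10, 128083273 to 128090391), had 3955 and 3959 TPM in replicates 1 and 2, rank 10 among nuclear protein-coding genes. Atp5a1, the alpha subunit that alternates with beta in the head, had 1507 and 1540 TPM. The central stalk subunits, present as single copies in the complex, were lower and near each other: Atp5c1 (gamma) at 881 ± 4.09, Atp5e (epsilon) at 853 ± 11.8 and Atp5d (delta) at 689 ± 22.0 TPM. Of the peripheral stalk, which holds the head still, Atp5h had 1311 ± 33.5, Atp5j 1107 ± 17.3, Atp5o 1060 ± 15.5 and Atp5f1 556 ± 2.61 TPM. The small membrane subunits e and f, encoded by Atp5k and Atp5j2, had 728 ± 0.764 and 818 ± 11.2 TPM, whereas subunit g, encoded by Atp5l, was listed at 194 and 208 TPM. Of the 15 genes 13 were at 500 TPM or more, and the 2 others, Atp5l and Atp5g2, are the members with the least certain read assignment, as described below. Atp5b stood 21.6 ± 2.06-fold above Atp5g2.

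Subunit c forms the ring that turns in the membrane, and it is made from 3 genes whose products share the same mature sequence. Atp5g3 (chromosome 2, 73908447 to 73911326) had 1751 and 1587 TPM, Atp5g1 (chromosome 11, 96068852 to 96075670) 1150 and 1140 TPM, and Atp5g2 (chromosome 15, 102662864 to 102672352) 196 and 171 TPM. Atp5g3 made up 55.7 ± 1.27% of the sum, Atp5g1 38.2 ± 1.56% and Atp5g2 6.12 ± 0.293%. The sum of the 3 genes, 2998 ± 140 TPM, was second only to beta among the listed nuclear subunits of the complex. In GENCODE M21 the 3 proteins are 136, 146 and 141 residues long for Atp5g1, Atp5g2 and Atp5g3, and their last 78 residues are identical. The 234 coding bases behind them are not: Atp5g1 differs from Atp5g3 at 50 of them (78.6% identity), Atp5g2 from Atp5g3 at 53 (77.4%) and Atp5g1 from Atp5g2 at 36 (84.6%), so reads can be told apart between the 3 genes. The first 60 of those coding bases are shown, with capitals where Atp5g1 or Atp5g2 differs from Atp5g3.
Atp5g1: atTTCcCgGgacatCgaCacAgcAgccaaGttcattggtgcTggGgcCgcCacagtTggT
Atp5g2: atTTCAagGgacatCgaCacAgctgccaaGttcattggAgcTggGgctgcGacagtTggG
Atp5g3: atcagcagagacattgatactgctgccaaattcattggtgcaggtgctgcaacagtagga

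Within the 60 bases Atp5g1 differs from Atp5g3 at 16 positions and Atp5g2 at 15.

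For 11 members, reads were also assigned to near-identical copies elsewhere in the genome, found by sequence as transcripts of other genes with at least 98% identity over at least 150 bases and 50% of the copy. In 5 of the 11 the copies held over 5% of the joint reads. Copies were searched for the members only, so these counts have no share over all genes beside them. Most of the copies are processed pseudogenes, which are copies of a spliced transcript put back into the genome; the files do not show which locus the RNA came from. The largest share belonged to Atp5l: Gm10221, a processed pseudogene on chromosome 5 (24581554 to 24581862) identical to it over 309 bases, was assigned 7733 and 6704 reads, against 1892 and 1828 reads for Atp5l itself. With the copies' reads added at the length of Atp5l, subunit g came to 980 ± 13.3 TPM, against 201 ± 9.42 TPM as deposited, a 4.87-fold difference, and was then above subunits e and f. For Atp5g2 the copy Gm10175 held most of the joint reads, and adding the copies gave 469 ± 20.2 TPM, against 184 ± 17.3 TPM. Atp5g2 then made up 13.8% of subunit c transcripts, against 6.12% as deposited, with Atp5g3 the highest either way.

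Cycs, the mobile carrier between complexes III and IV, was listed at 145 and 150 TPM, the lowest ubiquitous gene of the 46. Its copies Gm10053, annotated as protein coding, and Gm10108 held 58.7 ± 0.945% of the joint reads. Added at the length of Cycs they gave 357 ± 0.0974 TPM, and added as the deposited TPM of these much shorter transcripts they gave 1456 ± 70.5 TPM, and the files do not settle which of these 2 values or the deposited one holds for cytochrome c transcripts. For Cox7c the copies held 22.1 ± 0.863% of joint reads (1313 ± 6.67 TPM with them, against 1023 ± 6.13 as deposited), and for Atp5g1 9.66 ± 0.250% (1267 ± 10.9, against 1145 ± 6.65 TPM). With the TPM of the copies added instead, Cox7c came to 2284 ± 44.6 TPM, above every listed nuclear gene of complex IV as deposited. Atp5g1 then came to 1345 ± 13.3, Atp5g2 to 551 ± 21.1 and Atp5l to 1195 ± 19.5 TPM. The other 6 members with such copies changed by less than 1%. The posterior SD of the assigned reads is a deposited measure of how firmly reads were placed. It was 0 in both libraries for 26 members and above 1% of the reads for 2, Atp5l (4.50% and 4.62%) and Atp5g2 (3.17% and 3.76%). Neither count was made over all genes. With reads of copies added, the SD of log2 levels in complex V was 0.74, against 1.11 as deposited.

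**Figure D3:**
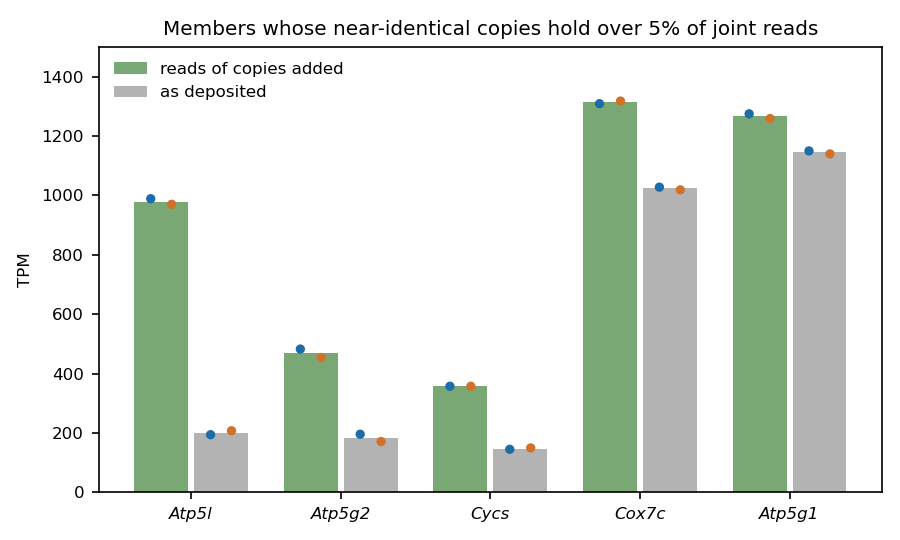
TPM of the 5 members whose near-identical copies hold over 5% of joint reads, with the reads of the copies added (green, left) and as deposited (grey, right); bars are means and dots the libraries (blue replicate 1, orange replicate 2). Atp5l changes most, 980 TPM with the copies and 201 TPM as deposited.

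The 46 genes had 179 annotated transcripts, and 12 genes had only 1. In all 34 genes with more than 1 transcript, the same transcript led by TPM in both libraries. Protein-coding transcripts took 90% or more of the TPM of 37 genes. These counts and the next one were not made over all genes, so they describe the members only. In 3 genes the leading transcript is annotated as another type. Atp5f1, subunit b, had 69.7 ± 0.0666% of its TPM in Atp5f1-203, a transcript marked for nonsense-mediated decay, and 28.3% in its coding transcript Atp5f1-201. Atp5j, coupling factor 6, had 69.0 ± 0.0965% in Atp5j-208, a retained-intron transcript of 526 bases, and Cox5b 60.1 ± 2.47% in Cox5b-205, a processed transcript of 362 bases. By share of estimated reads, which does not favour short transcripts, the coding transcripts of Cox5b led with 61.0 ± 2.42%, whereas in Atp5f1 and Atp5j they still held 33.1% and 38.6%.

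The same shift between TPM and reads was seen in Atp5b, where the short processed transcript Atp5b-206 of 478 bases had 27.3 ± 0.34% of TPM but 7.45 ± 0.115% of reads, and in Cox7b, where coding transcripts had 54.3 ± 4.13% of TPM and 73.5 ± 2.95% of reads. Every transcript's effective length was its length less 99 bases, so a transcript of 362 bases is counted as 263 bases. Counting only coding transcripts, Atp5b would be at 2764 ± 14 TPM, Cox5b at 330 ± 18.2, Atp5j at 314 ± 7.63 and Atp5f1 at 158 ± 0.75 TPM. Atp5f1 overlaps exons of the opposite-strand genes Wdr77 by 337 bases and Gm42890 by 203, and Atp5j overlaps those of Gabpa by 397. Exons of 12 members overlap an opposite-strand gene, a count that was not made over all genes and describes the members only. Since the sources used here do not say whether the libraries keep strand, reads of the overlapping genes may not be told apart. The part of such reads in these shares was not tested.

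**Figure D4:**
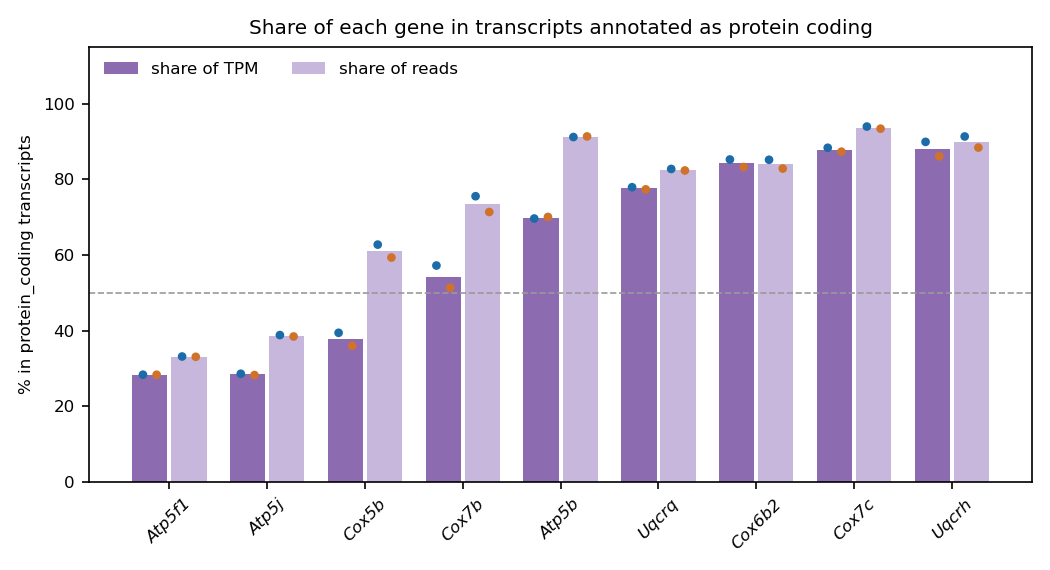
Percent of the TPM (dark) and of the estimated reads (light) of each gene that fell in transcripts annotated as protein coding, for the 9 genes under 90% by TPM; bars are means, dots the libraries (blue replicate 1, orange replicate 2) and the dashed line 50%. Atp5f1 and Atp5j lie under the line by both measures and Cox5b by TPM only.

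Atp5c1, the gamma subunit that turns inside the F1 head, has a 37-base exon near its end (chromosome 2, 10056770 to 10056806, minus strand) that is left out in heart and skeletal muscle of adult human and cow. The form without it, Atp5c1-201, had 731 and 727 TPM in replicates 1 and 2, against 146 and 153 TPM for the 2 transcripts that include it. The skipping form made up 83.0 ± 0.568% of the TPM of these 3 transcripts and stood 4.88 ± 0.196-fold above the including forms, and by reads it made up 81.2 ± 0.613%. The exon changes the end of the coding sequence, shown here as the last 30 bases with the stop codon, with capitals for the bases after the last shared coding exon.
Atp5c1-201: gaaatcatctctggggctgctgctctGTAA
Atp5c1-203: atcatctctggggctgctgctctGGATTAA

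The including form Atp5c1-203 is 1 residue longer, 298 against 297 residues. The main including transcript also starts 83 bases further out than Atp5c1-201 and lacks 14 bases at the end, so the assignment of reads may rest on those ends as well as on the exon.

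The mitochondrial DNA supplies 6 further subunits of complexes III, IV and V, all at higher TPM than the nuclear median. mt-Atp6 and mt-Atp8 of ATP synthase had 8334 ± 314 and 7420 ± 325 TPM, mt-Cytb of complex III 3385 ± 56.1 TPM, and mt-Co1, mt-Co2 and mt-Co3 of complex IV 2396 ± 7.9, 2574 ± 66.3 and 1892 ± 240 TPM. By the mean of both libraries, Atp5b alone among the 46 nuclear genes exceeded the lowest of these 6; in replicate 2, Cox6b1 and Cox8a at 1756 and 1752 TPM were also above mt-Co3 at 1723 TPM. Nuclear copies of mitochondrial DNA can take some of these reads, so the order among the 6 is uncertain. Further small nuclear subunits outside the list were abundant as well, Usmg5 at 2157 ± 33.5 TPM and 2010107E04Rik (named Atp5mpl now) at 1152 ± 11.1 TPM, both of ATP synthase. Atp5s (factor B) had 15.2 ± 0.771 and Higd1a 86.0 ± 1.5 TPM. Uqcc3, counted below among the assembly factors of complex III, had 45.7 ± 4.66 TPM.

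Genes that assemble the complexes were far lower than the subunits. The 35 assembly factors of complexes II to V had a median of 35.1 TPM. At 1 TPM or more in both libraries were 34 of them, where 57.5% of nuclear protein-coding genes were. An average of 100 TPM or more was reached by 6 of the 35. In both libraries 43 of the 46 subunits and 6.31% of nuclear protein-coding genes reached 100 TPM. The 6 were Atpif1, the inhibitor of ATP synthase listed here with its assembly factors, at 1122 ± 1.82, and Cox17, a copper chaperone, at 248 ± 2.67 TPM. With them were Uqcc2 at 241 ± 2.19, Cox20 at 164 ± 0.502, Cox14 at 138 ± 1.41 and Coa3, named here after its value was seen, at 137 ± 4.02 TPM. Pet117 was the lowest and the least even, with 2.81 and 0.39 TPM in replicates 1 and 2. The 11 regulators of mitochondrial genes, among them the factors whose motifs were searched, lay between 13.9 ± 0.644 TPM (Ppargc1b) and 50.1 ± 2.27 TPM (Tfam). Tfam packages mitochondrial DNA and takes part in starting its transcription. Ppargc1a, a coactivator of respiratory genes, had 41.6 ± 1.07 and Gabpa 37.1 ± 1.49 TPM.

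**Figure D5:**
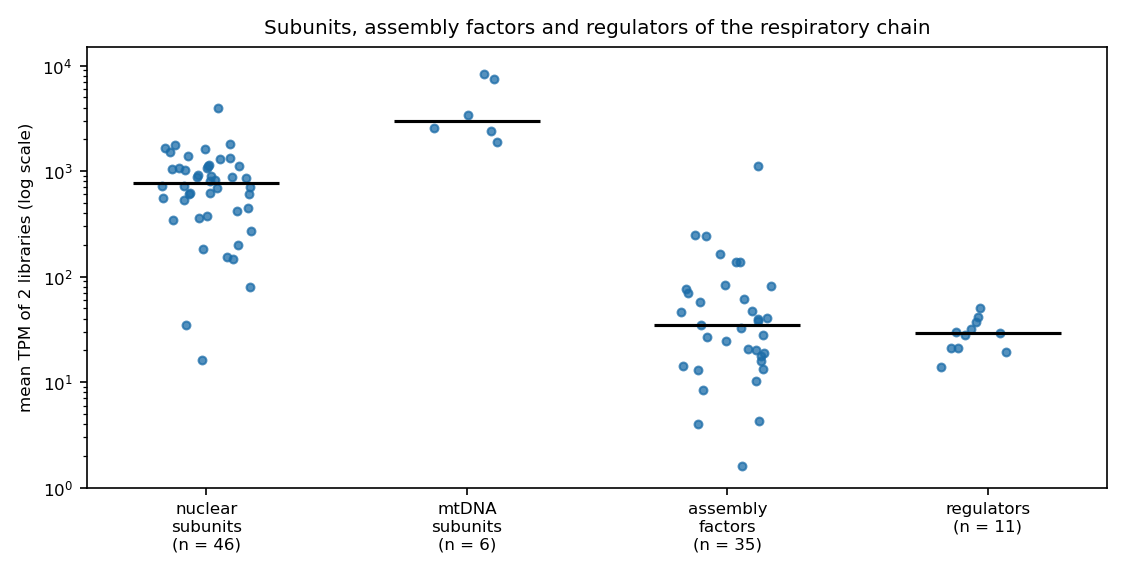
Mean TPM of 2 libraries (log scale) of the 46 nuclear subunits, 6 subunits encoded in mitochondrial DNA, 35 assembly factors and 11 regulators; each dot is a gene, spread sideways for visibility only, and black lines are medians. The medians are 767, 2980, 35.1 and 29.2 TPM in that order.

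The libraries differed little for these genes. With 0.1 added to TPM, log2 ratios of replicate 2 to replicate 1 had a median that was -0.0069 over the 46 genes and 0.0047 over the 1355 nuclear protein-coding genes at 100 TPM or more, and 21 genes were higher and 25 lower in replicate 2. Of the 43 members at 100 TPM or more 2 lay more than 1.1-fold apart (4.65%), where 3.25% of those 1355 genes did. These were Atp5g2, 171 TPM in replicate 2 and 196 in replicate 1, and Atp5g3, 1587 and 1751 TPM; below 100 TPM, Cox4i2 did as well, with 15.4 and 17.0 TPM. Atp5g1 of the same subunit differed by under 1%, with 1140 TPM in replicate 2 and 1150 in replicate 1. With counts scaled by TMM factors, DESeq2 size factors or spike-in totals, the split of members became 6, 8 or 4 higher and 40, 38 or 42 lower in replicate 2, with medians between -0.051 and -0.036. The medians of the 1355 genes were -0.022, -0.020 and -0.035 under the same 3 scalings, so these genes shifted the same way. More than 1.1-fold apart lay 5 of the 46 members under each scaling, against 3 with TPM. The 1355 genes were not counted by direction or by the 1.1-fold limit under these scalings. The counts of members therefore have no background beside them and describe the members only.

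The 46 genes lie on 18 chromosomes. A protein-coding gene that starts within 500 bases on the other strand and runs the opposite way was annotated for 10 of them (21.7%), where 9.39% of the 12344 detected nuclear protein-coding genes had one. Among the 10 was Sdhd, whose start lies 98 bases from that of Timm8b, a chaperone gene of mitochondrial protein import, named here after its value was seen. Timm8b had 244 and 231 TPM in replicates 1 and 2, beside 454 and 449 TPM for Sdhd. The partners of the other 9 were lower, the highest of them Lrrc41 beside Uqcrh at 49.2 and 51.5 TPM in replicates 1 and 2.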

How the data were processed

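Total RNA was sequenced from 2 heart samples of mouse embryos, and the deposited gene and transcript tables of both libraries were used. Per the labels, reads were placed on mm10; the tables carry GENCODE M4 identifiers, per the notes deposited with the samples. For the programs that aligned and quantified, name and version are not given in these sources. In the deposited expected count, reads shared between genes are divided, so values need not be whole; for the scaling factors they were rounded to whole numbers. The deposited TPM values divide these by effective length and scale them to 1 fixed total over all rows, spike-ins and globins included, so a change in any abundant RNA moves the rest. The deposited FPKM values, the deposited percent of each transcript in its gene, and the deposited posterior SD of each count (given in the unit of counts) served as alternatives and as a check of read placement.

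Names, types and coordinates came from GENCODE M21, on the same GRCm38 build as mm10. Of 178 member transcripts with a M21 sequence 160 had the same length. The leading transcript of 13 members differed in length from M21 or was absent there, among them Cox6a2, Cox7a1, Cox7a2, Cox8a and Cox8b. The length correction in the ratios of muscle to ubiquitous forms therefore rests on the deposited lengths. Near-identical copies were searched with blastn 2.17.0 (98% identity, 150 bases, 50% of the copy). Levels were summarised per complex as the median TPM and the SD of log2 TPM, pairs of forms as ratios within a library, and library differences as log2 ratios with 0.1 added. Scaling factors came from edgeR 4.0.16 (TMM) and DESeq2 1.42.0 in R 4.3.3, and the rest from pandas 2.3.3 and scipy 1.17.1 under Python 3.11.15, with plots by matplotlib 3.10.9. In simulated Poisson counts of 12302 genes, with 200 changed 2-fold between the libraries, the log2 ratio was recovered at 0.997. The ratios were centred there on the genes known to be unchanged, a step not made with the real values. This result therefore checks the calculation only and says nothing on the real libraries.

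Any member could be named; of other genes, those named were the 3 highest and the lowest of each list, all subunits encoded in mitochondrial DNA or outside the list of 46, and the copies or overlapping genes on which a value turns. The members and lists were chosen with earlier results of these data known. No test was made between conditions, since there is 1 group; the SD of 2 libraries, whose labels name separate tissue samples, covers sampling and preparation of pooled embryos only.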

Additional observations from a re-analysis of the deposited data

How the results depend on the processing

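The 155 comparisons of a result with an alternative gave 118 called the same and 37 called moved. The limit was 1 SD of the libraries, a factor of 1.5 for counts, and for the library difference the SD over the 46 members. That last limit called the TMM, DESeq2 and spike-in scalings the same. Leaving out 1 of 2 libraries always stays within 1 SD, and all 46 members pass 1 TPM, so such comparisons could not move. FPKM, proportional to TPM within a library, could hardly move either. The tally thus does not measure robustness. Signs were compared for the pairs of forms only, and none was reversed. Levels of complexes II, III, IV and V moved with the unit but not in their order of II below III below IV and V: 404, 701, 853 and 860 TPM by posterior mean TPM, and 566, 986, 1200.0 and 1209 TPM rescaled to nuclear protein-coding genes other than globins. Ubiquitous forms alone gave 1069 TPM in complex IV, above complex V. The alternatives with copies, coding transcripts, summed forms and leading transcripts by reads, and the 1.1-fold limit, were chosen after seeing the data. Coding transcripts alone gave 397, 635, 713 and 851 TPM, and reads of copies added gave 980 TPM in complex V.

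The SD of log2 levels per annotated length was 0.37 in complex II, 0.48 in III and 1.14 in V. Adding reads of copies gave 2.07 in complex IV and 0.74 in V, adding their TPM 2.11 and 0.72, and summing the forms of a subunit 0.49 and 1.07. The span of the 11 ubiquitous complex IV genes was 5.44-fold by coding transcripts alone and 3.69-fold with the TPM of copies added. Log2 ratios of the muscle over the ubiquitous form moved with length: -0.95 for Cox6a2, -1.67 for Cox7a1 and -4.65 for Cox8b per annotated length, and -0.75, -2.72 and -5.24 with no length, while a pseudocount of 1 gave -1.41 for Cox7a1. Of the 5 muscle or restricted forms, all were lower under each alternative run. Leaving out either library gave medians of 411 to 414, 714 to 723, 869 to 881 and 878 to 884 TPM for complexes II to V. Depth limits Cox4i2 and Cox6b2 most, with 206 to 356 reads a library. No paired analysis was possible because there is 1 group.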
